A study of Mus musculus with 6 samples.

Results

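The genes described here are 54 genes of the mitotic spindle, the kinetochore and cytokinesis, chosen by symbol from the 52740 gene rows of the count table. All 54 matched 1 row each and all 54 passed the filter on low counts, as members of the 15022 genes tested. They fall into 8 subgroups by role: 7 cyclins, kinases and phosphatases of mitotic entry, 9 checkpoint and anaphase genes, 10 kinetochore and centromere genes, 4 subunits of the chromosomal passenger complex, 9 kinesins, 3 spindle assembly factors, 5 cytokinesis genes and 7 chromosome structure genes. The smallest estimated count of any of them in any library was 36.

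RNA was sequenced from C2C12 cells, an established mouse myoblast line that divides in serum-rich medium and can be driven to fuse into myotubes. One group of 3 libraries came from cells given a control siRNA (siCTRL) and the other, also of 3, from cells given an siRNA against Cox7a2l (siCOX7A2L). Both groups were grown in DMEM with 10% fetal bovine serum and transfected with RNAiMAX, and the libraries were made from total RNA after removal of ribosomal RNA. The time between transfection and harvest is not given in the sources used here. Cox7a2l encodes a mitochondrial inner membrane protein that takes part in joining respiratory complexes III and IV, and the series' title places the study in myoblast differentiation. The labels do not say whether the replicates were grown separately. A p-value here therefore reflects variation among these libraries alone, and that variation may be technical.

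Entry into mitosis is driven by cyclin B bound to Cdk1, with Aurora kinases and Cdc25 phosphatases. Kinetochores then attach chromosomes to spindle microtubules that kinesins slide and shorten, and the spindle checkpoint holds back separase until every chromosome is attached. Cytokinesis follows at a bundle of antiparallel microtubules, the central spindle. The messages of most of these genes peak in G2 and mitosis, when the DREAM repressor has left their promoters and B-Myb and FoxM1 act there, and they are low in cells that have left the cycle, such as differentiating myoblasts.

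The promoters of these genes often carry a CHR element (TTTGAA) near the start, with CCAAT boxes further upstream. Promoter sequences were matched by symbol in a RefSeq table of build GRCm38.p6, which holds 250 bases before to 50 bases after each start, and 46 of the 54 genes had one. The windows of 120 bases before the start are shown for 3 genes named below whose window holds a CHR element and touches no annotated exon. They read 5′ to 3′ on the gene's strand, and capitals mark the CHR element (TTTGAA or its complement TTCAAA) and the CCAAT box (CCAAT or its complement ATTGG). The Top2a window is chr11:99024190-99024309 on the minus strand, the Mki67 window chr7:135716380-135716499 on the minus strand, and the Kif11 window chr19:37376262-37376381 on the plus strand.
Top2a: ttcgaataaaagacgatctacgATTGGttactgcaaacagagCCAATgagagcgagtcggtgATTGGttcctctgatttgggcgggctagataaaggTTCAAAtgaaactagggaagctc
Mki67: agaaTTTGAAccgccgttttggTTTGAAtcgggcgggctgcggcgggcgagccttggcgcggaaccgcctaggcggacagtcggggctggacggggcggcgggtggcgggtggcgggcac
Kif11: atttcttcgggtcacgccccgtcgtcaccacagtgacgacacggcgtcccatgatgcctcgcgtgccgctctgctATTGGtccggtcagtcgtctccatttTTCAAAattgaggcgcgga
In these windows Top2a holds 3 CCAAT boxes and 1 CHR element, Mki67 holds 2 CHR elements, and Kif11 holds 1 of each.

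A CHR element on either strand lay in the promoter of 34 of the 46 genes, or 73.9%. Among the 27025 genes with a RefSeq promoter 20.2% held one, of the 32851 promoters 17.9%, and of the 10079 genes tested here with a promoter 14.7%. Within the 100 bases before the start the shares were 30.4% of the 46 genes and 4.02% of the tested genes. A CCAAT box lay in 69.6% of the 46 promoters, against 43.4% of tested genes. An E2F-type core (GGCGGGAA or GCGGGAAA, either strand) lay in 2 of the 46, or 4.35%, against 5.88% of tested genes. Each motif was counted on its own, and matches of different motifs were allowed to overlap. A match describes the letters and is not a shown binding site.

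**Figure D1:**
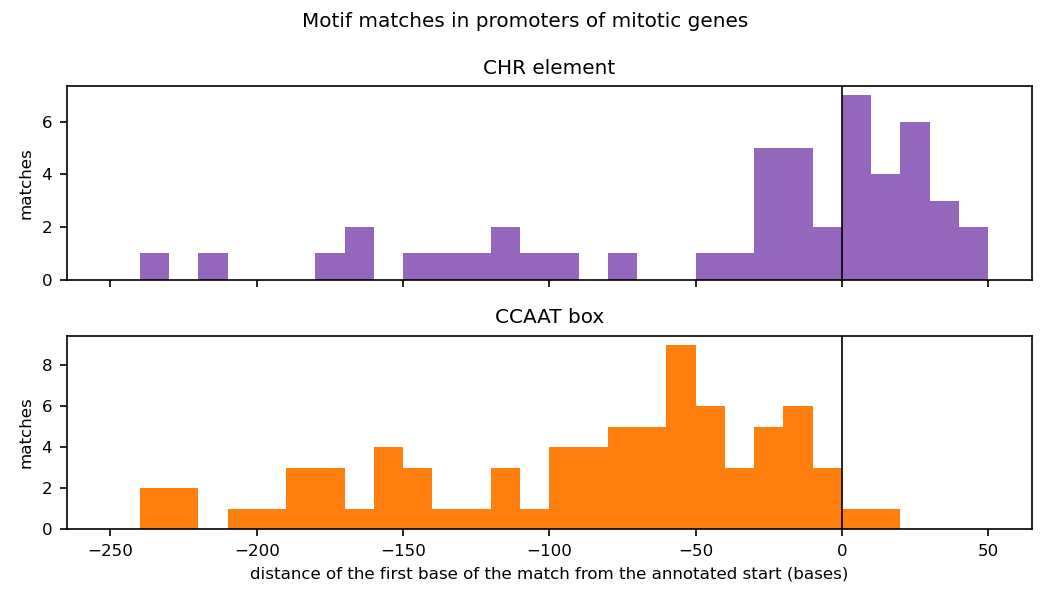
Histogram of the positions of CHR elements (top) and CCAAT boxes (bottom) in the promoters of the 46 mitotic genes with a RefSeq promoter, in bins of 10 bases. The x axis is the distance in bases of the first base of a match from the annotated start and the y axis is the number of matches. CHR matches gather on both sides of the start, and CCAAT matches lie mostly upstream of it.

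The target of the siRNA was checked first. Cox7a2l had 58.0, 59.5 and 58.9 CPM (the count as a share of the library, scaled by TMM factors) in controls 1 to 3, and 6.72, 5.90 and 3.59 CPM in the Cox7a2l siRNA libraries of the same numbers. The groups did not overlap, and the log2 fold change was -3.44 ± 0.19 (SE, n = 3 per group; edgeR quasi-likelihood, adjusted p = 1.91e-05). The libraries held 9890218 to 17077826 estimated counts, and siRNA replicate 3 was the smallest. Replicate 3 of both groups stood apart. Messages of mitochondrial DNA took 2.78% and 1.61% of the counts there, against 0.589% to 0.616% in the other 4 libraries. One gene row without a symbol took 5.81% to 6.59% of the counts in control libraries and 6.97%, 7.57% and 11.1% in Cox7a2l siRNA libraries 1, 2 and 3, and its part in the results below was not tested.

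No mitotic gene of the 54 passed the adjusted threshold of 0.05, yet all 54 had a negative log2 fold change in edgeR with the block on replicate number. Over all genes tested 0.293% were called lower and 48.9% had a negative value. The lowest adjusted p among the 54 was 0.0576 and the highest 0.845. At an unadjusted p under 0.05, 49 of 54 were lower and 0 higher, against 8.97% of all genes lower. The median log2 fold change of the 54 was -0.54, a level of 0.690 times control, and that of all genes tested was 0.01. Values ran from -0.90 for Prc1 to -0.09 for Bub3, and 29 of 54 lay below -0.5, as did 7.23% of all genes. In bulk RNA, fewer cells of a type and less RNA per cell cannot be told apart, so these values do not separate fewer mitotic cells from lower message per mitotic cell.

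The levels of the libraries themselves show the same difference. Together the 54 genes had 6086, 6138 and 6705 CPM in controls 1 to 3, and 4684, 4939 and 3278 CPM in the Cox7a2l siRNA libraries. Each Cox7a2l siRNA library was below all 3 controls, and replicate 3 held both the highest control and the lowest siRNA sum. The groups did not overlap for 43 of 54 genes, against 7.62% of all genes in that direction. With replicates 1 and 2 alone they did not overlap for 50 of 54, against 22.8% of all genes. In 52 of 54 the siRNA library was lower in each of the 3 pairs of same-numbered libraries, against 20.8% of all genes. The exceptions were Cenpk and Ndc80, with log2 differences of 0.14 and 0.04 in pair 2.

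**Figure D2:**
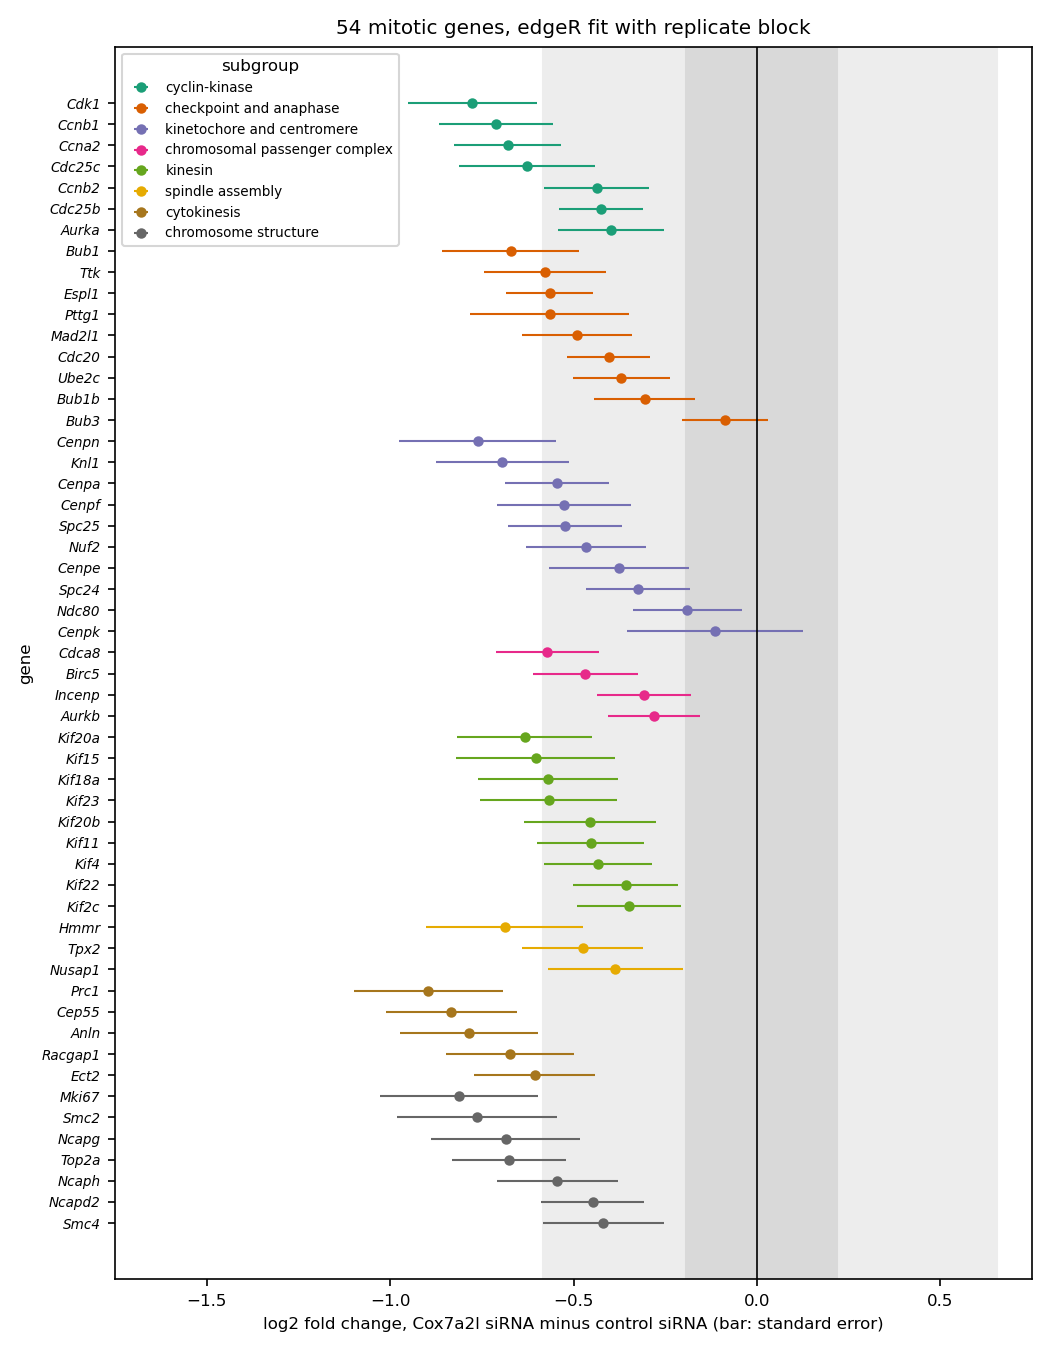
Log2 fold change (x axis, Cox7a2l siRNA minus control) of each of the 54 mitotic genes (y axis), coloured by subgroup, with bars of 1 standard error from the edgeR fit with replicate block over 3 libraries per group. Dark and light grey bands span the middle 50% and 90% of all 15022 genes tested. All 54 points lie left of 0, from -0.90 for Prc1 to -0.09 for Bub3.

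Other fits of the same libraries called more of the 54 genes. By the authors' deposited table, 30 of 54 had a negative log2 fold change at an adjusted p under 0.05 and 0 a positive one, against 3.45% of all genes lower. DESeq2 with the replicate block called 20 of 54 lower, against 2.34%. A term for replicate 3 in place of the 3 numbers, in edgeR, called Ccna2, Espl1 and Cep55, 3 of 54, against 0.526%. Without the filter on low counts edgeR called 40 of 54, against 2.58%. Without replicate 1 it called 16 of 54 (1.32% of all genes), without replicate 2 34 of 54 (4.34%) and without replicate 3 0 of 54 (0.133%). The count of calls thus went from 0 to 40 with the fit, while the sign was negative for 53 or 54 genes in each of them.

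Among the regulators of mitotic entry the median log2 fold change was -0.63 (7 genes, -0.78 to -0.40). The authors' deposited table called 5 of 7 lower, against 3.45% of all genes. Cdk1, the kinase that triggers mitosis, had 134, 136 and 119 CPM in control libraries and 96.3, 96.0 and 45.9 CPM after Cox7a2l siRNA. Ccnb1, its cyclin B partner, had 158, 143 and 117 CPM against 114, 102 and 51.1 CPM. Ccna2, cyclin A of S and G2 phase, had 184, 179.7 and 194 CPM against 135, 127 and 90.3 CPM. In all 3 the groups did not overlap, and siRNA replicate 3 was the lowest library. The edgeR log2 fold changes were -0.78 ± 0.17 for Cdk1 (adjusted p = 0.0675), -0.71 ± 0.16 for Ccnb1 (0.0611) and -0.68 ± 0.15 for Ccna2 (0.0583), none past the threshold. Aurka, the centrosomal Aurora kinase, was the least different of the subgroup. It had 84.0, 83.3 and 71.6 CPM against 71.6, 72.0 and 42.0 CPM, so siRNA replicate 2 lay above control replicate 3 (log2 -0.40 ± 0.15, adjusted p = 0.190). Cdc25b, a phosphatase that activates Cdk1, differed almost alike in the 3 pairs, by log2 -0.44, -0.38 and -0.46.

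The checkpoint and anaphase genes had a median of -0.49 (9 genes), and spanned the range from Bub1 at -0.67 to Bub3 at -0.09. Bub1, a checkpoint kinase at kinetochores, had 58.2, 55.5 and 46.0 CPM in control and 44.5, 42.5 and 18.5 CPM in Cox7a2l siRNA libraries. Espl1, separase, which cuts cohesin at anaphase, had 219.8, 229 and 157 CPM against 157, 162 and 95.2 CPM. Its control replicate 3 (156.6 CPM) lay below siRNA replicate 2 and just below siRNA replicate 1 (156.7 CPM). In each pair the siRNA library was still lower, by log2 -0.49, -0.49 and -0.72. With Cep55, Espl1 had the lowest adjusted p of the 54 genes (log2 -0.57 ± 0.12, edgeR adjusted p = 0.0576). Bub3, which carries Bub1 to the kinetochore, had 117, 111 and 73.2 CPM against 112, 106 and 66.5 CPM, a log2 fold change of -0.09 ± 0.12 (adjusted p = 0.751). For Bub3 both replicate 3 libraries were low and the groups overlapped. Cdc20, the activator of the anaphase-promoting complex, had 176, 190.0 and 154 CPM against 129, 149 and 116 CPM, without overlap.

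The 10 kinetochore and centromere genes had a median of -0.50. Cenpa, the histone variant that marks centromeres, had 109, 107 and 93.5 CPM in control and 78.3, 87.5 and 50.8 CPM in Cox7a2l siRNA libraries (log2 -0.55 ± 0.14, edgeR adjusted p = 0.0928). Knl1, the scaffold that recruits Bub proteins, had 82.5, 81.7 and 70.3 CPM against 62.0, 61.7 and 28.3 CPM (log2 -0.69 ± 0.18, adjusted p = 0.0968). Both were without overlap between the groups. The Ndc80 complex, which binds microtubule ends, was measured by its 4 subunits, with log2 fold changes of -0.19 for Ndc80, -0.47 for Nuf2, -0.33 for Spc24 and -0.52 for Spc25. Cenpk, a subunit of the inner kinetochore, had 5.55, 4.20 and 5.45 CPM against 5.26, 4.63 and 4.04 CPM, with overlap (log2 -0.11 ± 0.24, adjusted p = 0.845). Its sign turned positive on the TPM scale (0.12 with 1 TPM added) and without replicate 3 (0.03).

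The chromosomal passenger complex corrects wrong attachments and later acts at the midzone, and its 4 subunits had a median of -0.39. Cdca8, Borealin, had 81.0, 80.6 and 90.9 CPM in control and 61.0, 60.1 and 49.1 CPM in Cox7a2l siRNA libraries (log2 -0.57 ± 0.14, edgeR adjusted p = 0.0796). Birc5, Survivin, had 82.1, 82.2 and 87.6 CPM against 66.4, 67.3 and 49.6 CPM (log2 -0.47 ± 0.14, adjusted p = 0.131). Neither overlapped between the groups. Aurkb, the kinase of the complex, had 105, 105 and 71.6 CPM against 90.4, 92.5 and 52.1 CPM, so control replicate 3 lay below 2 of the siRNA libraries (log2 -0.28 ± 0.12, adjusted p = 0.273).

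Among the 9 kinesins the median was -0.45. The groups did not overlap for 8 of 9, Kif18a being the exception, against 7.62% of all genes in that direction. The authors' deposited table called 2 of 9 lower, against 3.45% of all genes. Kif20a, a midzone kinesin that carries the passenger complex, had 187, 196 and 191 CPM in control and 132, 174 and 80.9 CPM in Cox7a2l siRNA libraries (log2 -0.63 ± 0.18, edgeR adjusted p = 0.128). Kif11, which pushes spindle poles apart, had 103, 102 and 97.4 CPM against 84.5, 86.0 and 54.2 CPM (log2 -0.45 ± 0.15, adjusted p = 0.144). Kif2c, a microtubule depolymerase, had 78.9, 76.1 and 74.5 CPM against 72.1, 64.2 and 46.4 CPM (log2 -0.35 ± 0.14, adjusted p = 0.237). The controls of these 3 kinesins lay close together and the siRNA libraries spread more widely. The 3 spindle assembly factors had a median of -0.48. Tpx2, which activates Aurora A on microtubules, had 119, 125 and 209 CPM against 101, 111 and 103 CPM (log2 -0.48 ± 0.17, adjusted p = 0.177). Hmmr had 72.8, 74.9 and 83.4 CPM against 51.7, 65.8 and 31.0 CPM (log2 -0.69 ± 0.21, adjusted p = 0.148). Nusap1, a microtubule-bundling protein, had 31.4, 32.3 and 56.9 CPM against 28.4, 31.0 and 29.2 CPM (log2 -0.39 ± 0.18, adjusted p = 0.306). Tpx2 and Nusap1 had their highest level in control replicate 3, while their siRNA libraries lay close together.

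The 5 cytokinesis genes had the most negative subgroup median, -0.79, with a range from -0.90 to -0.61. The groups did not overlap for 5 of 5, against 7.62% of all genes in that direction. The authors' deposited table called 5 of 5 lower, against 3.45% of all genes. Prc1, which bundles the antiparallel microtubules of the central spindle, had 166, 169.8 and 205 CPM in control and 100.5, 128 and 68.4 CPM in Cox7a2l siRNA libraries (log2 -0.90 ± 0.20, edgeR adjusted p = 0.0783). Cep55, which recruits the abscission machinery to the midbody, had 49.0, 49.4 and 52.9 CPM against 35.0, 31.0 and 20.3 CPM (log2 -0.83 ± 0.18, adjusted p = 0.0576). Both were lower in every siRNA library than in any control. Ect2, the exchange factor that activates RhoA at the cleavage furrow, had 83.8, 79.9 and 84.3 CPM against 66.1, 61.2 and 38.9 CPM (log2 -0.61 ± 0.16, adjusted p = 0.102). Racgap1 and Anln, its partner at the midzone and an actin-binding furrow protein, had log2 fold changes of -0.67 and -0.79.

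The 7 chromosome structure genes had a median of -0.68. For 6 of 7 the groups did not overlap, against 7.62% of all genes in that direction. Mki67, which encodes the Ki-67 coat protein of mitotic chromosomes, had 465, 491 and 834 CPM in control and 321, 380.3 and 285 CPM in Cox7a2l siRNA libraries (log2 -0.81 ± 0.22, edgeR adjusted p = 0.113). Top2a, the topoisomerase that untangles sister chromatids, had 512, 513 and 409 CPM against 388, 368 and 183 CPM (log2 -0.68 ± 0.16, adjusted p = 0.0712). Smc4, a condensin core subunit, had 122, 129 and 177 CPM against 114, 112 and 91.4 CPM (log2 -0.42 ± 0.17, adjusted p = 0.222). Mki67 and Smc4 were highest in control replicate 3, where Top2a was the lowest of the controls. Smc2, the partner of Smc4, had a log2 fold change of -0.76. The subgroup medians thus ran from -0.39 for the passenger complex to -0.79 for cytokinesis, and the ranges of all 8 subgroups overlapped except that of the passenger complex with that of cytokinesis. Without replicate 3 the medians were nearer to 0 in all 8 subgroups. They were then -0.47 for cytokinesis, -0.41 for mitotic entry, -0.36 for chromosome structure, -0.35 for checkpoint and anaphase, -0.29 for kinetochore, -0.26 for kinesins, -0.25 for the passenger complex and -0.21 for spindle assembly. The spindle assembly factors thus replaced the passenger complex at the end nearest 0. The differences between subgroups were not tested.

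**Figure D3:**
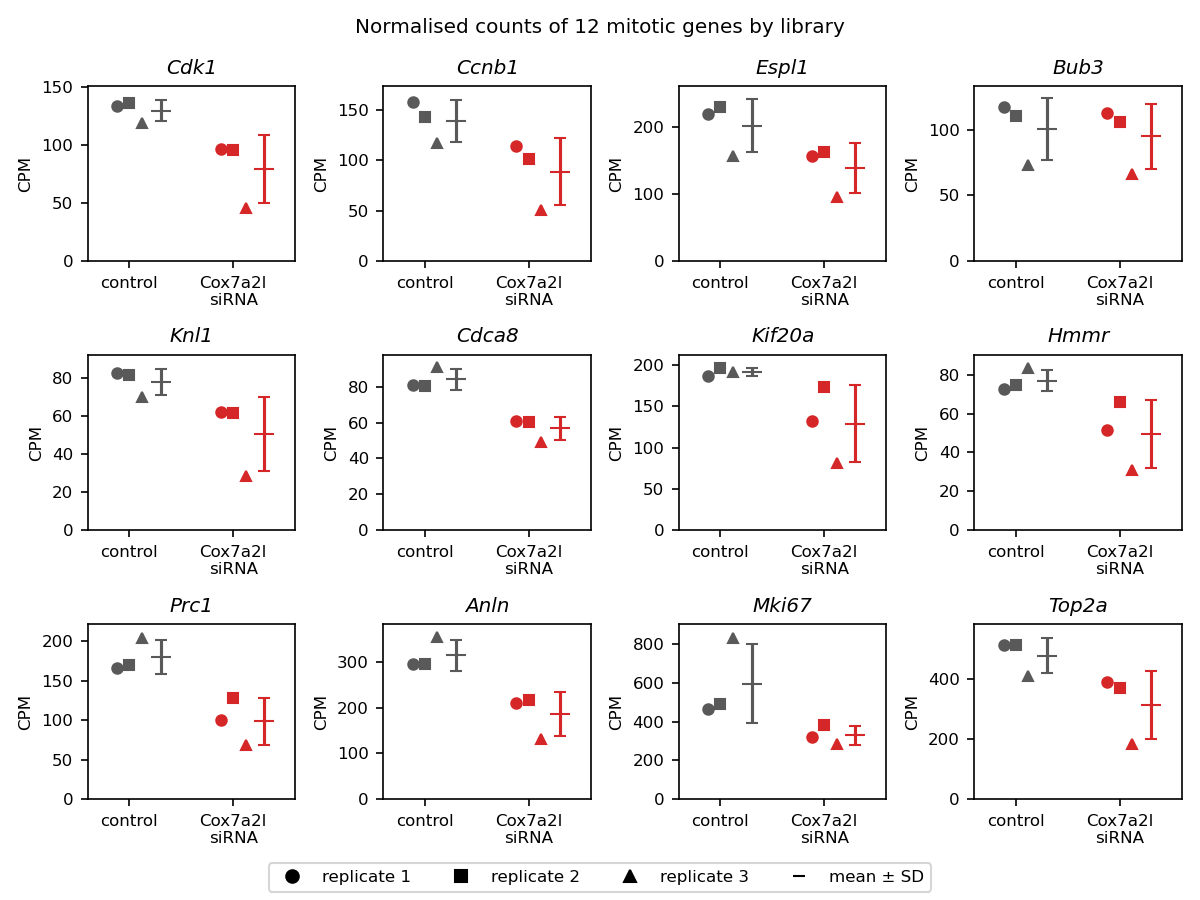
TMM-scaled CPM (y axis) of 12 mitotic genes in each library, with control siRNA in grey and Cox7a2l siRNA in red. Circles, squares and triangles are replicates 1, 2 and 3, and bars give the mean ± SD of 3 libraries. The 12 genes were picked by hand as examples. In 10 of the 12 panels the groups do not overlap, against 7.62% of all genes in that direction, and Espl1 and Bub3 are the exceptions.

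Compared per transcript length, Cdk1 had the highest level of the 54 genes in control libraries, at 158 ± 14.0 TPM (transcript share corrected for length; mean ± SD, n = 3), followed by Top2a at 132 ± 12.6 and Racgap1 at 105 ± 3.84 TPM. The next 2 were Ube2c at 96.1 ± 38.6 and Cdc20 at 93.7 ± 9.04 TPM. The spreads of Cdk1 and Top2a overlapped, and that of Ube2c covered the means of Cdc20, Racgap1 and Top2a. The lowest were Kif18a at 5.13 ± 1.44 and Cenpk at 4.25 ± 1.79 TPM, which also lay within their spread.

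For most of the 54 genes the siRNA difference was most negative in pair 3. The median log2 difference of the 54 genes was -0.37 in pair 1, -0.27 in pair 2 and -0.99 in pair 3, and the medians of all genes were 0.00, 0.00 and 0.01. Pair 3 had the most negative value in 50 of the 54 genes, as in 38.8% of all genes. A direct edgeR test of pair 3 against pairs 1 and 2, which leaves 1 residual degree of freedom, gave a negative difference in 54 of 54 genes, against 50.3% of all genes. It called 3 of them at an adjusted p under 0.05, against 0.34% of all genes in that direction. These were Mki67 at -1.10 ± 0.19 (adjusted p = 0.0273), Smc2 at -1.13 ± 0.20 (0.0267) and Anln at -0.96 ± 0.19 (0.0443). At an unadjusted p under 0.05 the count was 41 of 54, against 9.3% of all genes. With library size alone the test called 26 of 54 (2.91% of all genes), and without the filter on low counts 27 of 54 (2.04%). The scaling also moved the direction of the calls over all genes, with 51 of 93 more negative in pair 3 under TMM and 437 of 520 with library size alone. Without replicate 3 the median log2 fold change of the 54 genes was -0.34, and 53 of 54 stayed negative. By subgroup the pair 3 median was -1.37 for cytokinesis, -1.16 for chromosome structure and -1.10 for mitotic entry, and it was nearest to 0 for the passenger complex, at -0.68. In pairs 1 and 2 the cytokinesis medians were -0.48 and -0.41 and the entry medians -0.44 and -0.50.

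**Figure D4:**
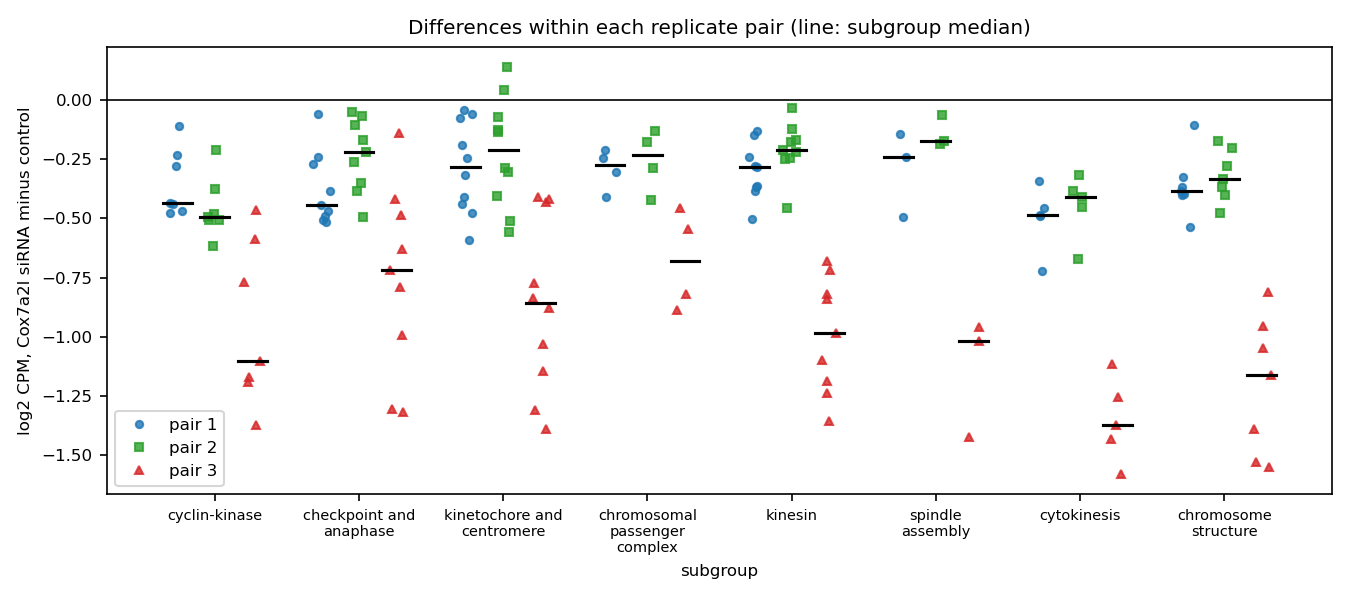
Log2 CPM difference (y axis, Cox7a2l siRNA minus control of the same replicate number) of each mitotic gene by subgroup (x axis), with circles for pair 1, squares for pair 2 and triangles for pair 3, and a line at each median. The pair 3 median is the lowest in every subgroup, with values from -1.37 to -0.68, and 2 points of pair 2, Cenpk and Ndc80, lie above 0.

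Across the 54 genes the pair differences were related to a moderate degree, with Pearson r of 0.34 between pairs 1 and 2, 0.51 between pairs 1 and 3 and 0.39 between pairs 2 and 3. Over all 15022 genes the values were 0.25, 0.37 and 0.22. These are correlations across genes, which are not independent and share their libraries. Members with a CHR element had a median log2 fold change of -0.57 (34 genes, -0.90 to -0.09). Those without one had -0.48 (12 genes, -0.71 to -0.11). The ranges overlapped, and the difference was not tested. Over all tested genes with a promoter the medians were -0.01 with the element (1485 genes) and 0.01 without it (8594 genes).

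Markers of the cells were examined beside these genes. All 6 myoblast markers passed the filter, with a median log2 fold change of 0.08 (-1.03 to 0.34) and 0 called by edgeR. Their summed level was 5742 to 7933 CPM in control and 6285 to 7065 CPM in siRNA libraries, and Myod1 had 117.6 to 161 CPM. The lowest value belonged to Msc, a repressor of muscle differentiation, with 10.2, 9.22 and 5.91 CPM against 3.80, 5.06 and 3.48 CPM (log2 -1.03, edgeR adjusted p = 0.0662), which the authors' deposited table called lower (adjusted p = 0.0109). Of 10 muscle differentiation markers 9 were tested, with a median of 1.24 (-0.04 to 2.03) and 1 negative value. By edgeR Tnnt1, Actc1 and Acta1 rose (log2 2.03, 1.55 and 1.14, adjusted p = 0.00226, 0.0263 and 0.0407). Over all genes edgeR called 65 of 15022 higher. In the authors' deposited table Tnnt1 and Acta1 were also called higher (adjusted p = 2.07e-07 and 0.00342), but Actc1 was not (adjusted p = 0.467). The summed level of the 10 was 12.6, 11.8 and 179.7 CPM in control and 34.9, 11.7 and 492 CPM in Cox7a2l siRNA libraries 1, 2 and 3. The median log2 difference of the tested markers was 1.40, 0.13 and 1.38 in pairs 1, 2 and 3, and that of the 54 mitotic genes -0.37, -0.27 and -0.99. Of 7 fibroblast markers 5 were tested, with a median of -0.05. Of these Dcn rose (log2 1.72, adjusted p = 0.0419), while Col1a1, Col1a2 and Twist2 had negative values (-0.05, -0.17 and -0.13) and Pdgfra a positive one (0.15), none past the threshold. The summed level was 2319 to 2611 CPM in control and 1690.5 to 2978 CPM in siRNA libraries. The 8 leukocyte, epithelial and endothelial markers summed to 2.51 to 4.46 CPM in control and 2.74 to 7.52 CPM in siRNA libraries, with Epcam at 0 in all 6. The part of differentiation or of other cells in the mitotic result was not tested.

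A wider set of 112 mitotic genes outside the 54, in 7 lists by complex, was all tested. Of these 1 was called lower (0.293% of all genes) and 0 higher by edgeR with the replicate block, 101 had a negative log2 fold change (48.9% of all genes), and the median was -0.35. The groups did not overlap for 41 of the 112 (7.62% of all genes), and the authors' deposited table called 24 of them lower (3.45% of all genes). The gene called, Sapcd2, a spindle orientation protein, had 33.9, 38.7 and 18.8 CPM in control and 19.9, 24.6 and 7.86 CPM in Cox7a2l siRNA libraries (log2 -0.87 ± 0.17, adjusted p = 0.0460). Its groups overlapped between replicates, since control replicate 3 lay below siRNA replicates 1 and 2, and it fell in each pair. The call was lost without the block (adjusted p = 0.822), with library size alone (0.0665), on the TPM scale (0.117) and without replicate 3 (0.0685).

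The lists differed in their medians. Other spindle, kinesin and cytokinesis genes had -0.48 (21 genes), condensin II, the nuclear condensin, -0.57 (3 genes), other mitotic kinases -0.41 (15 genes) and other kinetochore genes -0.40 (31 genes). Augmin and gamma-tubulin, which nucleate microtubules, had -0.26 (14 genes), cohesin and its regulators -0.15 (13 genes), and the anaphase-promoting complex, a ubiquitin ligase needed outside mitosis as well, -0.07 (15 genes). These differences were not tested. Plk1, the polo-like kinase, had 94.9, 107 and 167 CPM in control and 71.0, 83.9 and 103 CPM in siRNA libraries, with siRNA replicate 3 above control replicate 1 (log2 -0.49 ± 0.13, adjusted p = 0.0917). Ska1, which couples kinetochores to microtubules, had log2 -0.83 ± 0.22 (adjusted p = 0.101) and Ncapg2 of condensin II -0.72 ± 0.18 (0.0825). The lowest adjusted p of the other lists belonged to Anapc1 (-0.43, 0.128), Cdca5 (-0.63, 0.139) and Tubgcp4 (-0.61, 0.0979), none past the threshold.

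**Figure D5:**
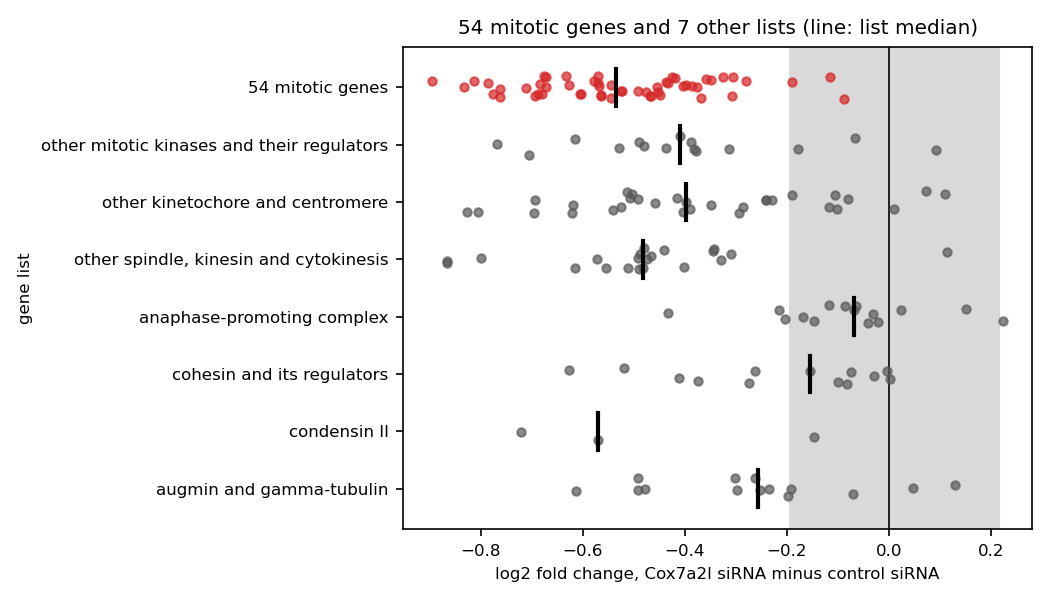
Log2 fold change (x axis, Cox7a2l siRNA minus control, edgeR with replicate block) of single genes in the 54 mitotic genes (red) and in 7 lists of other mitotic genes (grey), with a line at each list's median and a grey band over the middle 50% of all genes tested. The medians run from -0.57 for condensin II to -0.07 for the anaphase-promoting complex, and that of the 54 genes is -0.54.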

How the data were processed

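The submitters' processing notes name the build mm39, Salmon 0.13.1, Trim Galore 0.6.4 and DESeq2 1.30.1, with no step for each. The authors deposited estimated counts and TPM per gene, and a result table with scaled counts (a normalised signal), log2 fold changes, p-values and adjusted p-values, per the file headers. Unversioned identifiers gave 97.6% of the 52740 rows a symbol from GENCODE M21.

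Estimated counts were rounded, and edgeR 4.0.16 (R 4.3.3) was the test (TMM, default expression filter by group, robust quasi-likelihood, replicate number as block, Benjamini-Hochberg over 15022 genes at 0.05). The design foresaw counts, hence the rounding. Standard errors are the log2 value over the root of F. Pair values are log2 CPM with a prior count of 2. The edgeR fit with the replicate block was tested on simulated counts that held no replicate effect. Same-numbered libraries deviated together across genes (r = 0.532, 0.452 and 0.669), which was taken as pairing. Replicates 1 and 2 also correlated across numbers (0.435 and 0.429), so the match of numbers was clear only for replicate 3. DESeq2 1.42.0, limma 3.58.1 on log2 TPM, other scalings, no filter, no block and leaving out each pair were alternatives.

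Genes, lists and markers were chosen with earlier results of these data known. Named genes are, per subgroup, the 2 with the lowest adjusted p and the 1 with the highest log2 fold change, a fixed set (Mki67, Cdk1, Ccnb1, Top2a, Bub3, Cox7a2l), and per other list the called genes and the lowest adjusted p. Others are named as description. Promoter windows that touch a GENCODE M21 exon were left out, a rule added after they were seen.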

Additional observations from a re-analysis of the deposited data

Results flagged for a closer look

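The siRNA effect differed between pair 3 and pairs 1 and 2 for 3 of the 54 genes by a test of that difference itself (edgeR, interaction of group with replicate 3, adjusted over 15022 genes, 0.34% of which were called in that direction). The count depends on the settings, with 26 of 54 under library size alone and 27 of 54 without the filter on low counts. The log2 difference of pair 3 minus pairs 1 and 2 was -1.10 for Mki67, -1.13 for Smc2 and -0.96 for Anln. For all 3 genes control replicate 3 was the highest control and siRNA replicate 3 the lowest siRNA library. The log2 difference of control replicate 3 from controls 1 and 2 was 0.80 for Mki67, 0.26 for Anln and 0.08 for Smc2. For Smc2 the gap thus came mostly from siRNA replicate 3, with 48.8 CPM against 101.7 and 100.9 CPM in siRNA replicates 1 and 2. Replicate 3 of both groups also had more mitochondrial messages than the other libraries, and siRNA replicate 3 was the smallest library.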

How the results depend on the processing

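The median log2 fold change of the 54 genes was negative in all alternatives run, from -0.80 (log2 of TPM + 0.1) to -0.34 (without replicate 3). The median of all genes itself moved to -0.18 with TPM + 1 and -0.24 with TPM + 0.1. No replicate block gave 0 called genes of the 54 and a median of -0.52, with the lowest adjusted p of the 54 at 0.735. That fit called only 2 of all genes tested, in either direction. The number of the 54 genes called was 3 with the replicate 3 term (0.526% of all genes lower), 20 with DESeq2 (2.34%) and 40 without the filter on low counts (2.58%). It was 0 to 34 when leaving out each replicate (0.133% to 4.34%). With library size alone or DESeq2 size factors in edgeR it was 0, where 58 and 109 of all genes were called in either direction. The checkpoint and anaphase median was -0.74 with TPM + 1 and -0.79 with TPM + 0.1, and that of the chromosomal passenger complex -0.64 and -0.65, below -0.49 and -0.39 on counts. Cenpk turned positive, to 0.12 with TPM + 1, 0.14 with TPM + 0.1 and 0.025 without replicate 3, and ran from -0.252 to 0.025 when leaving out each replicate. The test of pair 3 against the other pairs called 26 of the 54 with library size alone (2.91% of all genes) and 27 without the filter (2.04%), against 3 (0.34%). The count of negative values, an alternative chosen after seeing the data, was 53 on the TPM scale and without replicate 3, and 54 otherwise. The cause of these shifts was not tested. Depth limits Cenpk most, with counts of 36 to 94 per library.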

Other observations

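Within the control group the 54 genes did not differ from replicates 1 and 2 to replicate 3 in 1 direction. The log2 difference of control replicate 3 from the mean of control replicates 1 and 2 had a median of 0.09 over the 54 genes. It was 0.87 for Cenpn, a reader of centromeric nucleosomes, 0.87 for Ube2c, the ubiquitin-conjugating enzyme of the anaphase-promoting complex, and 0.83 for Nusap1. It was -0.63 for Bub3, -0.61 for Kif18a and -0.55 for Aurkb. The spindle assembly factors had a median of 0.78 and the mitotic entry genes -0.12. These are values of 1 library against 2, with no test.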
